A study of Mus musculus with 10 samples.

Results

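The Edn1 locus of the mouse, on chromosome 13, was examined through chromatin loops in bone marrow-derived macrophages. A loop here is a pair of 10 kb bins of the genome listed with the number of sequenced contacts that joined them. Every listed loop with an anchor bin overlapping the 100 kb on either side of the Edn1 transcription start site was taken, whatever its contacts. The locus itself was chosen with earlier results of these data known. This gave 74 distinct bin pairs out of 153264 in the series, and 130 of the 301424 lines of the 5 loop lists.

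The study used Hi-C, among other assays, to ask how a past exposure to interleukin-4 (IL-4) leaves the macrophage genome folded. It also asked how such primed cells then respond to interferon-gamma (IFNG). Lipopolysaccharide and dexamethasone were further second signals of the study, and the lists used here do not cover them. All cells were differentiated with 20 ng/ml M-CSF from marrow of wild type female C57BL/6 mice aged 2 to 3 months, and treatment began on day 6. M0[CTR] cells were left untreated, and M2[IL-4] cells received 20 ng/ml IL-4 for 24 h. M2p[pIL-4] cells received the same IL-4 for 24 h, were washed, and rested for 24 h. IFNG cells received 20 ng/ml IFNG for 3 h without IL-4, and pIL-4 + IFNG cells were primed with IL-4, rested, and then given IFNG for 3 h. Each of the 5 groups had 2 replicates but 1 loop list, so no value below has a replicate check and no test between groups was possible.

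The lists held 53424 to 67728 loops, and the M2p[pIL-4] and pIL-4 + IFNG lists were the longest. In every one of them the median loop had 32 contacts, and median spans ranged from 160 to 180 kb. A bin pair absent from a list was not called there, which is not the same as 0 contacts. The lists carry no expression values, so the labelled cell type could not be checked against macrophage markers. Confidence intervals cover counting error only and treat loops as independent, which touching bin pairs are not.

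Edn1 encodes the precursor of endothelin-1, a small peptide that constricts blood vessels and acts through the receptors encoded by Ednra and Ednrb. Endothelial cells are its best known source, and activated macrophages also make it. The precursor is trimmed to the active peptide by endothelin-converting enzymes, encoded by Ece1 and Ece2, and the peptide can be broken down by neprilysin, encoded by Mme.

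Edn1 (ENSMUSG00000021367.8, GENCODE M21, GRCm38) lay on the plus strand at chr13:42301476-42307990. The whole gene, with its 5 exons, fitted in the bin chr13:42300001-42310000, called the start bin here. Gm47118, an annotated antisense RNA gene, lay inside the same bin, so loops of the 2 genes could not be told apart. The 250 bases before the start, chr13:42301226-42301475 on the plus strand of GRCm38.p6, are shown because the start bin contains them; a 10 kb bin does not place an anchor within it. The capitals mark the only STAT core with spacing 4, that is TTC and GAA with any 4 bases between them.
Edn1 promoter: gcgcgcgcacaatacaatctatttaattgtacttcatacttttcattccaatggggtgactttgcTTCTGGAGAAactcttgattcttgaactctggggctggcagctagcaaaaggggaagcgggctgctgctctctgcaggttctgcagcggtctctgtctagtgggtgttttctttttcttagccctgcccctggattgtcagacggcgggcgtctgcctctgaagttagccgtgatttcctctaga
The match began 185 bases before the start, and 6.95% of 32851 promoter windows of 300 bases (250 before to 50 after the start) held this core on either strand, by RefSeq starts. The STAT core with spacing 3 (TTC, any 3 bases, GAA), the AP-1 core TGANTCA and TATAAA did not occur in the Edn1 window, and they occurred in 8.30%, 7.81% and 13.6% of promoter windows. ACGTG occurred once, on the minus strand downstream of the start, and in 19.6% of promoter windows.

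The anchor bins were searched on both strands for a CTCF core of 14 bases (CCAC, any base, AGG and TGGCAG in a row), allowing 1 mismatch, because CTCF sites facing each other are commonly found at loop anchors. At least 1 match was found in 5 of the 36 anchor bins (13.9%), against 2.17% of 11707 gap-free bins of chromosome 13. The latter were taken whether or not they anchor a loop. Anchor bins of other loops were not counted apart, so whether this share is particular to Edn1 was not tested. The 5 matches are shown in capitals, each written on its own strand with 8 flanking bases.
Upstream match, plus strand, chr13:41643072-41643085: atattttgCCACTAGATGGCAGagttgttc
Upstream match, plus strand, chr13:41709622-41709635: acgttcggCCAGCAGGTGGCAGcaaacgtt
Start bin match, minus strand, chr13:42306129-42306142: gaaagagaCCCCTAGGTGGCAGgtgtgaag
Downstream match, minus strand, chr13:42579628-42579641: tcaatttgCCACCAGGTGGGAGggaatggg
Downstream match, minus strand, chr13:42589818-42589831: tacccaggACACTAGGTGGCAGcaaattac
Both upstream matches were on the plus strand, and the other 3 were on the minus strand. The start bin match lay in Edn1 itself, in the intron between exon 4 and exon 5, and the other 4 overlapped no annotated gene. These are matches of letters. The study mapped CTCF binding by ChIP-seq, and those data were not used here.

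The loops of Edn1 reached mainly to one far upstream stretch of chromosome 13. Of the 74 bin pairs, 65 joined the Edn1 window to chr13:41630001-41790000, a band of 160 kb whose bins were centred 516.5 to 666.5 kb upstream of the start. The limit that defines this band, over 400 kb away, was chosen after the values were seen. The band ran from the end of Tmem170b, a gene for a transmembrane protein, over the lincRNA gene Gm5082 to the end of Adtrp, whose product regulates tissue factor pathway inhibitor and hydrolyses a class of fatty acid esters. The loops passed over Hivep1, which encodes a zinc finger protein that binds enhancer sequences, with 1 exception. The Hivep1 bin chr13:42150001-42160000 was joined to the Edn1 start bin in the pIL-4 + IFNG list only, with 30 contacts (95% Poisson interval 20.2 to 42.8).

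A smaller set of 7 bin pairs reached downstream, to 4 bins within chr13:42550001-42600000, centred 253.5 to 293.5 kb from the start. No annotated gene overlapped these 4 bins. They were joined to no bin of the window but the start bin and its right-hand neighbour, whereas the upstream band was joined to 16 bins of the window. The remaining bin pair had both anchors in the window.

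**Figure D1:**
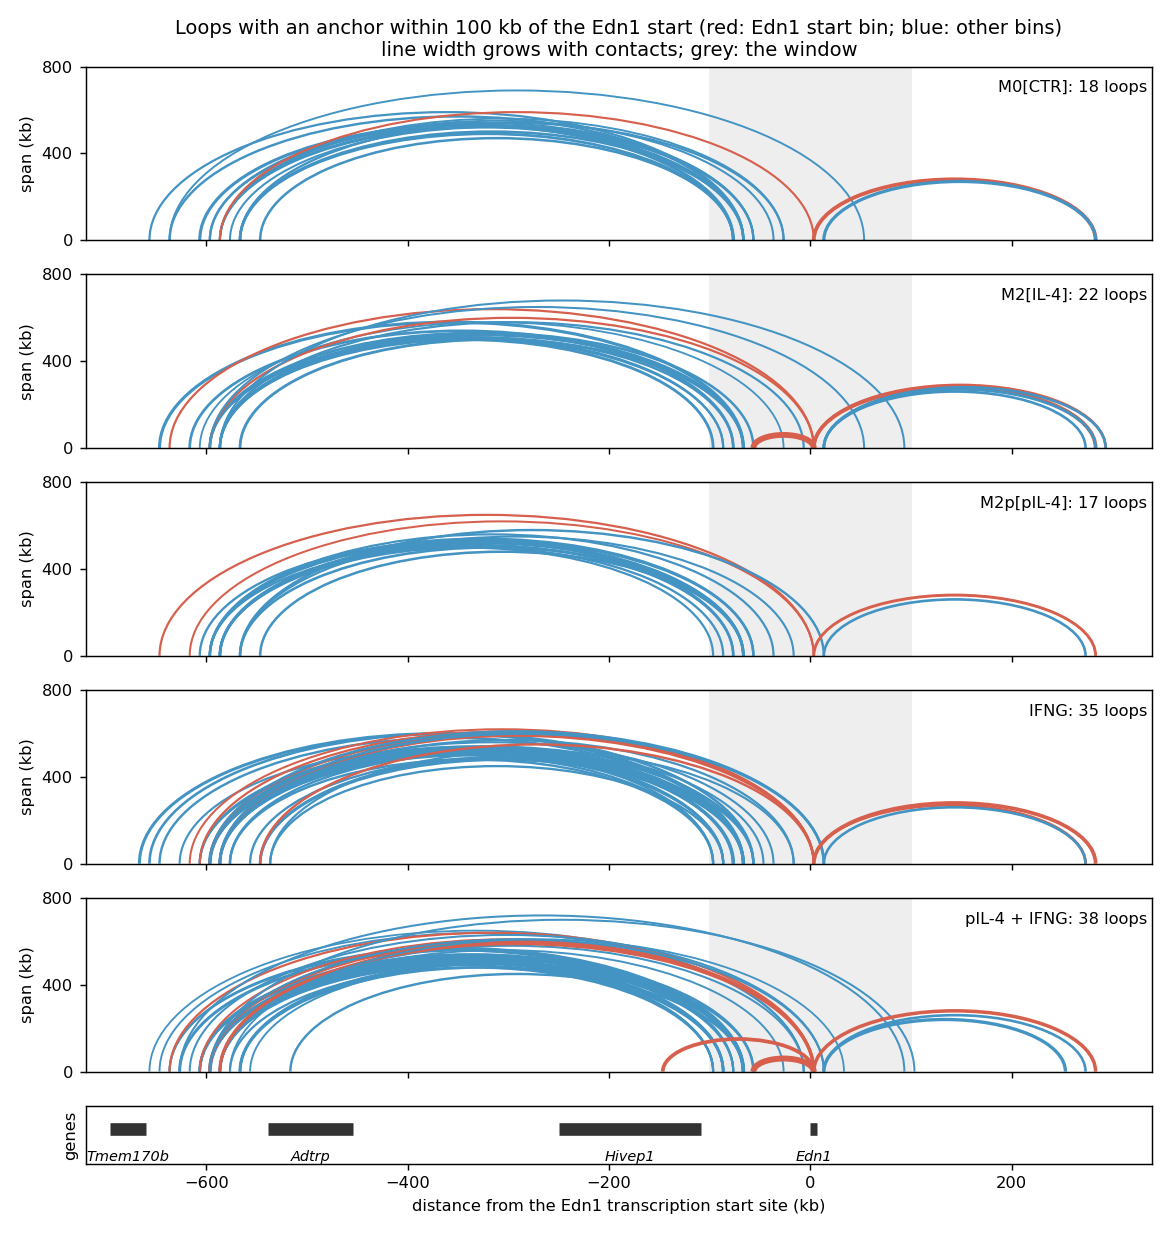
Each arc is a loop with an anchor within 100 kb of the Edn1 start, drawn by distance from the start (x axis, kb) with its height equal to its span (y axis, kb), in 1 panel per list. Red arcs end in the start bin, blue arcs in another bin of the grey window, and width grows with contacts; the 35 and 38 arcs of the 2 lists with IFNG crowd into the same far upstream band as the 17 to 22 arcs of the other lists, and the short red arc is drawn in M2[IL-4] and pIL-4 + IFNG only.

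These were long loops for these lists. The median span at Edn1 was 530 kb in M0[CTR], M2p[pIL-4], IFNG and pIL-4 + IFNG, and 515 kb in M2[IL-4]. The spans ran from 60 to 720 kb. Contacts per loop had medians of 16, 18.5, 17, 17 and 15 in M0[CTR], M2[IL-4], M2p[pIL-4], IFNG and pIL-4 + IFNG, below the median of 32 of each list. Divided by the median contacts of loops of the same span in the same list, the median loop at Edn1 stood at 1.07, 1.07, 1.07, 1.06 and 1.00. The median loop at Edn1 thus lay at or just above the median of its span.

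The upstream band had partners besides Edn1. To places other than the Edn1 window, M0[CTR] listed 33 loops of the band, M2[IL-4] 38, M2p[pIL-4] 32, IFNG 35 and pIL-4 + IFNG 43. To the Edn1 window it held 16, 16, 15, 32 and 33 loops in the same order. Among loops of 450 to 720 kb, the spans of the band to the window, 2 to 6 per list started in the band and ended elsewhere. A further 4 to 6 loops per list passed over Edn1, joining the band to the downstream bins with 8 to 15 contacts each.

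More loops were listed at Edn1 in the lists with IFNG than in the lists without it. M0[CTR] held 18 loops, M2[IL-4] 22, M2p[pIL-4] 17, IFNG 35 and pIL-4 + IFNG 38. The 3 lists without IFNG lay close together, and both lists with IFNG stood above all of them. As a share of the whole list, this was 3.37, 3.78, 2.51, 6.36 and 5.67 loops per 10000. The summed contacts were 310, 430, 293, 623 and 696. The increase was on the upstream side, where the loops numbered 16, 16, 15, 32 and 34, while downstream loops numbered 2, 5, 2, 3 and 3. The same lists stood highest among loops of similar span. Of all loops spanning 450 to 720 kb, Edn1 held 33.7, 30.9, 26.2, 63.0 and 58.9 per 10000.

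Scaled by list length and with 1 added to each number, Edn1 had 1.84 times as many loops in IFNG as in M0[CTR] (95% interval 1.04 to 3.54, log2 0.88). Across all 16921 protein-coding genes with a loop in either list, 16.6% were at least 1.5-fold higher, and 14.3% were at least 1.5-fold lower. Among the 9751 genes with a mean of at least 10 loops per list, 6.81% were at least 1.5-fold higher, 6.52% were lower, and 255 were at least as high as Edn1. In primed cells, pIL-4 + IFNG stood 2.19-fold above M2p[pIL-4] (1.24 to 4.27, log2 1.13). Here 15.3% of 17304 genes, and 5.91% of those with a mean of at least 10 loops, were at least 1.5-fold higher, and 59 of the latter were at least as high as Edn1. At least 1.5-fold lower were 12.1% and 4.23%. Among all 16921 and 17304 genes of the 2 comparisons, 1990 and 606 were at least as high as Edn1. The rise with IFNG thus placed Edn1 in the upper tail of genes in both settings, in a measure with no replicate.

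The size of this rise depended on how touching bin pairs were counted. When bin pairs that touch were merged into 1, M0[CTR] held 9 groups, M2[IL-4] 11, M2p[pIL-4] 9, IFNG 10 and pIL-4 + IFNG 14. The ratio of IFNG to M0[CTR] was then 1.07, below the 1.5-fold limit, and in primed cells it was 1.51. The added bin pairs in IFNG thus mostly touched other called bin pairs.

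**Figure D2:**
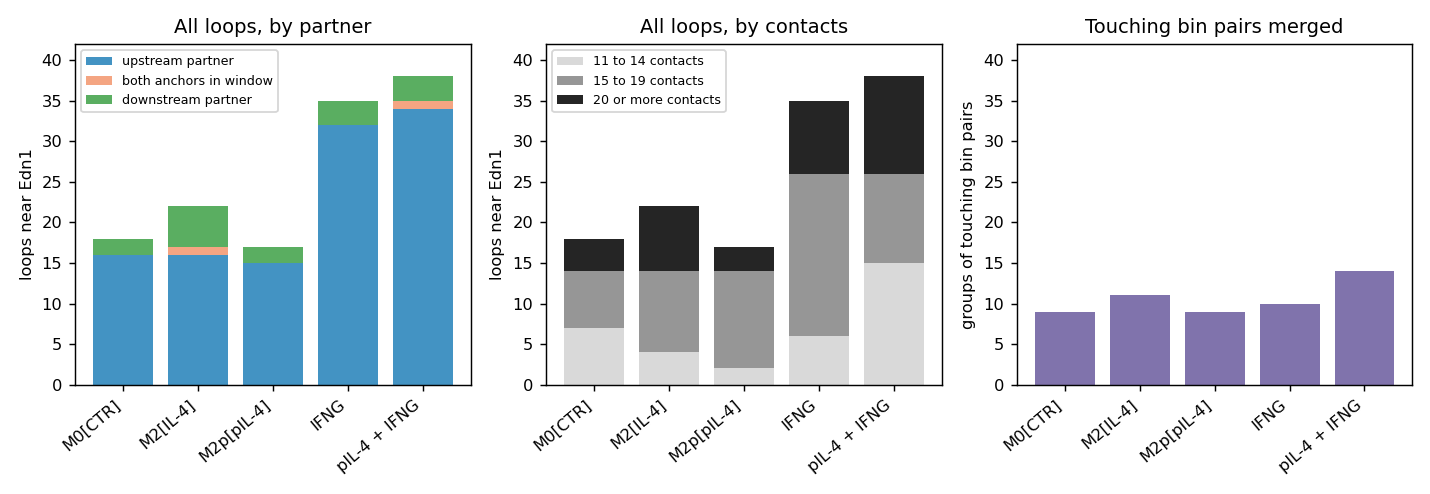
Loops near Edn1 in each list (y axis, number), stacked by the side of the partner (left) and by contacts per loop (middle), and the number of groups left after touching bin pairs were merged (right). The bars for IFNG and pIL-4 + IFNG reach 35 and 38 against 17 to 22 elsewhere, and after merging the IFNG bar falls to 10 beside 9 for M0[CTR].

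IL-4 by itself gave smaller differences. M2[IL-4] stood at 1.11 times M0[CTR] (0.574 to 2.22), where 15.3% of genes were at least 1.5-fold higher and 13.8% lower. After washout, M2p[pIL-4] stood at 0.747 times M0[CTR] (0.361 to 1.53), where 16.0% of genes were at least 1.5-fold higher and 10.4% lower. It stood at 0.673 times M2[IL-4] (0.331 to 1.31), where 15.7% were higher and 12.0% lower. Between the lists with IFNG, pIL-4 + IFNG stood at 0.889 times IFNG (0.548 to 1.45), where 14.2% of genes were at least 1.5-fold higher and 11.5% lower. None of these 4 ratios reached 1.5-fold in either direction, and each interval held 1. For M2p[pIL-4] over M2[IL-4] this depended on the counting, since 5 alternatives gave 0.381 to 0.665, past 1.5-fold lower. With at least 20 contacts per loop, M2[IL-4] stood at 1.63 times M0[CTR], and M2p[pIL-4] at 0.621 times. The 6 comparisons share lists with one another, M0[CTR] serving in 3 of them.

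**Figure D3:**
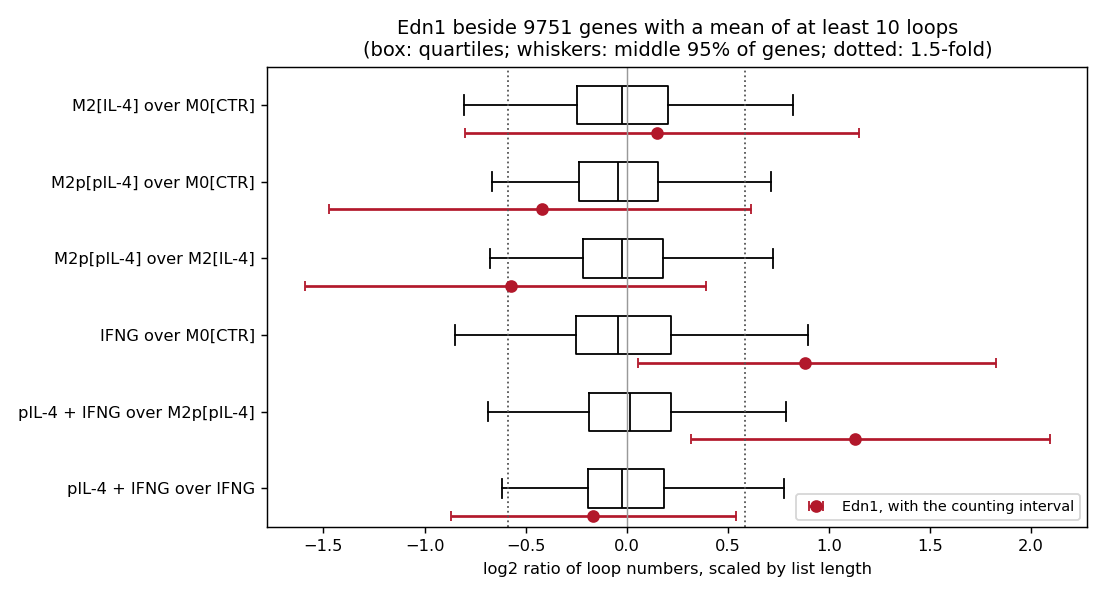
Log2 ratio of loop numbers scaled by list length (x axis) in the 6 comparisons; boxes give the quartiles and whiskers the middle 95% of 9751 genes with a mean of at least 10 loops, and red points give Edn1 with its counting interval. Edn1 lies past the dotted 1.5-fold line in the 2 comparisons that add IFNG, at 0.88 and 1.13, and inside it in the other 4.

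Loops at Edn1 had neighbours in the other lists about as often as loops elsewhere. In some comparisons, with IFNG and with IL-4 alone, a smaller share lay in the same bins. Of the 35 loops in IFNG, 32 (91.4%) had an M0[CTR] loop with both anchors within 25 kb, against 87.0% of all IFNG loops. In the same bins, 6 of the 35 (17.1%) were called in M0[CTR], against 45.6% of all IFNG loops. For pIL-4 + IFNG, 32 of 38 loops (84.2%) were matched within 25 kb in M2p[pIL-4] (88.6% of all its loops), and 10 (26.3%) in the same bins (48.3%). Between pIL-4 + IFNG and IFNG, 16 loops (42.1%) were in the same bins, where 43.2% of all loops were. Without IFNG, 6 of the 22 loops of M2[IL-4] (27.3%) were in the same bins as in M0[CTR], against 44.5% of all its loops. For M2p[pIL-4] the shares were 41.2% in M0[CTR], against 42.2%, and 52.9% in M2[IL-4], against 44.0%. M0[CTR] held 18 loops here, which limits how many of the 35 loops in IFNG could share its bins. All 17 loops of M2p[pIL-4] had a neighbour within 25 kb in M2[IL-4], against 87.1% of all its loops. Across the locus, 34 of the 74 bin pairs (45.9%) were called with IFNG and in no list without it, against 24.8% of all bin pairs of the series. The larger loop numbers with IFNG enter this share, so it is not a separate result. Of those 34, 30 (88.2%) lay within 25 kb of a loop of a list without IFNG, against 81.5% in the series.

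Where bin pairs were called on both sides of a comparison, no difference in their contacts was resolved. Bin pairs that missed calling in either list do not enter, which leaves out pairs with low contacts there. At the 6 bin pairs shared by IFNG and M0[CTR], the contacts summed to 120 and 106, a ratio of 1.10 after scaling (0.839 to 1.44). At the 10 shared by pIL-4 + IFNG and M2p[pIL-4] they summed to 201 and 182, a ratio of 1.12 (0.911 to 1.38). At the 16 shared by pIL-4 + IFNG and IFNG they summed to 313 and 291, a ratio of 1.09 (0.927 to 1.28). Each of these comparisons held 1 bin pair at least 1.5-fold higher, where 1.80%, 1.76% and 1.82% of all shared bin pairs were, and none at least 1.5-fold lower, where 1.55%, 1.71% and 1.68% were. With IL-4, the ratio to M0[CTR] was 1.04 at 6 bin pairs (0.806 to 1.35), and after washout it was 0.944 at 7 (0.736 to 1.21). M2p[pIL-4] stood at 0.906 times M2[IL-4] at 9 bin pairs (0.729 to 1.13). Of these shared bin pairs none was at least 1.5-fold higher, where 2.19%, 1.81% and 1.65% of all shared bin pairs were. At least 1.5-fold lower were 0 of 6, 1 of 7 and 0 of 9, where 1.41%, 1.53% and 1.74% of all were. The 1 lower bin pair, chr13:41690001-41700000 with chr13:42220001-42230000, held 16 contacts after washout beside 24 for M0[CTR], a ratio of 0.648 (0.322 to 1.27). The intervals of all 6 summed ratios held 1.

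The loops of IFNG and pIL-4 + IFNG differed in their contacts. In IFNG, 6 loops had 14 contacts or fewer, 20 had 15 to 19, and 9 had 20 or more. In pIL-4 + IFNG, 15 had 14 or fewer, 11 had 15 to 19, and 12 had 20 or more. M0[CTR] had 4 loops of 20 or more contacts, M2[IL-4] 8 and M2p[pIL-4] 3. Counting loops of 20 or more contacts alone, the lists with IFNG were still the highest, and M2[IL-4] came next.

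The start bin, which holds the Edn1 promoter shown above, was joined by 2 loops of M0[CTR], 5 of M2[IL-4], 3 of M2p[pIL-4], 7 of IFNG and 7 of pIL-4 + IFNG. One of them was called in all 5 lists, the loop to chr13:42580001-42590000, 280 kb downstream. M0[CTR] gave it 31 contacts, M2[IL-4] 31, M2p[pIL-4] 22, IFNG 30 and pIL-4 + IFNG 28. The lowest value was that of M2p[pIL-4], 0.690 times M0[CTR] after scaling (0.381 to 1.23). Each of its bins holds one of the minus-strand CTCF matches shown above.

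The shortest loop of the locus joined the start bin to chr13:42240001-42250000, whose centre lies 56.5 kb upstream of the start, past the end of Hivep1. It held 51 contacts in M2[IL-4] (38.0 to 67.1) and 52 in pIL-4 + IFNG (38.8 to 68.2). It was not called in M0[CTR], M2p[pIL-4] or IFNG, and none of those lists had a loop within 25 kb of it. The median loop of 60 kb span held 52 contacts in M2[IL-4] and 51 in pIL-4 + IFNG, so this was a loop of ordinary strength. The lowest called at that span held 22 and 20. The absence from the other lists therefore does not bound the contacts there at 0. The study chose Edn1 for capture partly by its own Hi-C, for loops that persisted or were strongest after IL-4 washout. It also required an enhanced response to a second signal, which for Edn1 was lipopolysaccharide. With a capture method of finer resolution, it reported Edn1 promoter contacts with an upstream enhancer cluster that appeared with IL-4. It described them as kept or stronger after washout. Those data were not set beside the 10 kb bins used here. The upstream bin held 4 matches to the STAT core with spacing 4, where the median bin of chromosome 13 held 3 and 96.3% held at least 1. One of them, at chr13:42248994-42249003, has the same 10 bases as the promoter match, and both are shown with 8 flanking bases.
Upstream bin: tcaatgacTTCTGGAGAAgtgcaata
Promoter: gactttgcTTCTGGAGAAactcttga
After IL-4, the study reported binding of STAT6, a STAT protein, at the captured anchor points of Edn1 and of other genes with enhanced responses. Those data were not used here, so binding at either match was not examined.

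The start bin was also joined to the far upstream band in every list, at different bins. M0[CTR] had 1 such loop, to chr13:41710001-41720000, with 14 contacts. M2[IL-4] had 2, with 15 contacts each, and M2p[pIL-4] had 2, with 15 and 13. IFNG had 5, with 13 to 18 contacts. The pIL-4 + IFNG list had 4, with 13, 15, 25 and 25 contacts.

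The bins chr13:41700001-41710000 and chr13:41710001-41720000 gave the strongest of these. From the first, the start bin had 15 contacts in M2[IL-4], 18 with IFNG and 25 in pIL-4 + IFNG, and was not called in M0[CTR] or M2p[pIL-4]. From the second it had 14 contacts in M0[CTR], 16 in IFNG and 25 in pIL-4 + IFNG, and was not called in M2[IL-4] or M2p[pIL-4]. In pIL-4 + IFNG both stood at 1.79 times the median of their span, above 97.8% and 96.8% of the loops of that span. Set against IFNG, the ratios after scaling were 1.41 (0.739 to 2.74) and 1.59 (0.814 to 3.18), and both intervals held 1. The first of these bins holds the plus-strand CTCF match at chr13:41709622-41709635 and the start bin the minus-strand match, so the 2 cores face each other across this loop.

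**Figure D4:**
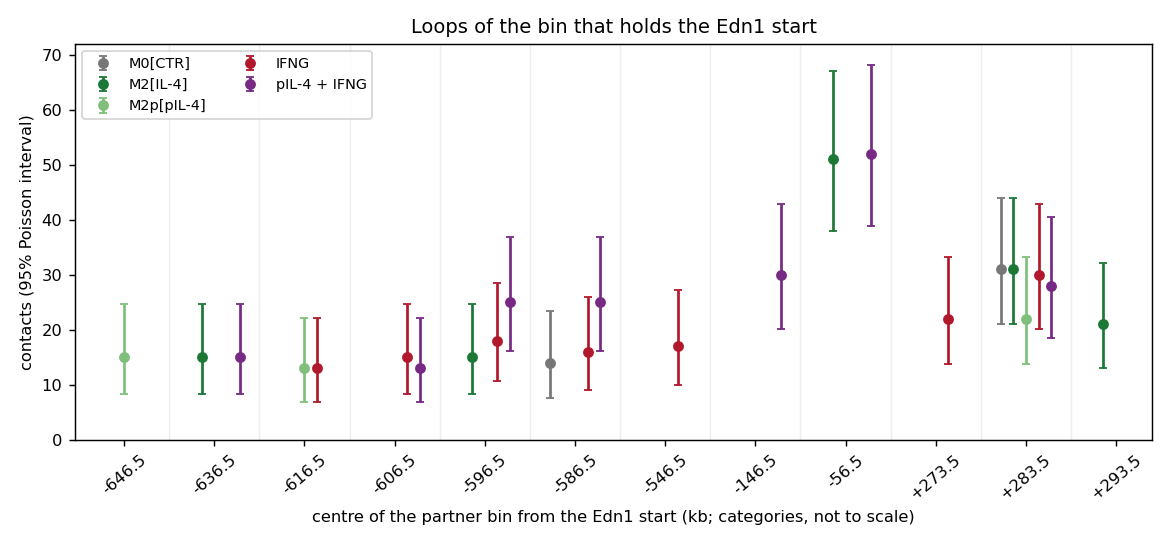
Contacts (y axis, with 95% Poisson intervals) of each loop of the start bin, by the centre of its partner bin from the Edn1 start (x axis, kb, as categories), coloured by list. The loop 56.5 kb upstream appears at 51 and 52 contacts in M2[IL-4] and pIL-4 + IFNG, and the loop 283.5 kb downstream appears in all 5 lists at 22 to 31.

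Inside the window, the loops gathered at 2 places. The first was a run of 5 bins centred 56.5 to 96.5 kb upstream of the start, between the end of Hivep1 and Edn1. Its busiest bin, chr13:42230001-42240000, had 5 loops of M0[CTR], 4 of M2[IL-4], 4 of M2p[pIL-4], 8 of IFNG and 7 of pIL-4 + IFNG. The bin chr13:42210001-42220000 had 0, 2, 1, 4 and 4 loops in the same order, and chr13:42200001-42210000 had 0, 1, 1, 3 and 4. These last 2 bins had no loop in M0[CTR], and their highest numbers were with IFNG. The bin chr13:42220001-42230000 showed no such order, with 3, 2, 2, 2 and 3 loops. The second place was the start bin and its right-hand neighbour, chr13:42310001-42320000, which had 1, 3, 2, 3 and 4 loops.

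In the upstream band, 2 adjacent bins led in most lists. The bin chr13:41710001-41720000 had 5 loops of M0[CTR], 6 of M2[IL-4], 4 of M2p[pIL-4], 8 of IFNG and 8 of pIL-4 + IFNG. The bin chr13:41700001-41710000 had 2, 5, 4, 8 and 6. Together they held 38.9%, 50%, 47.1%, 45.7% and 36.8% of the loops at Edn1. Their neighbour chr13:41690001-41700000 had 1 loop in each list without IFNG, 3 in IFNG and 5 in pIL-4 + IFNG. In contrast, chr13:41730001-41740000 had 3, 1, 3, 0 and 2 loops. No annotated gene overlaps these 4 bins, which lie between Gm5082 and Adtrp.

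**Figure D5:**
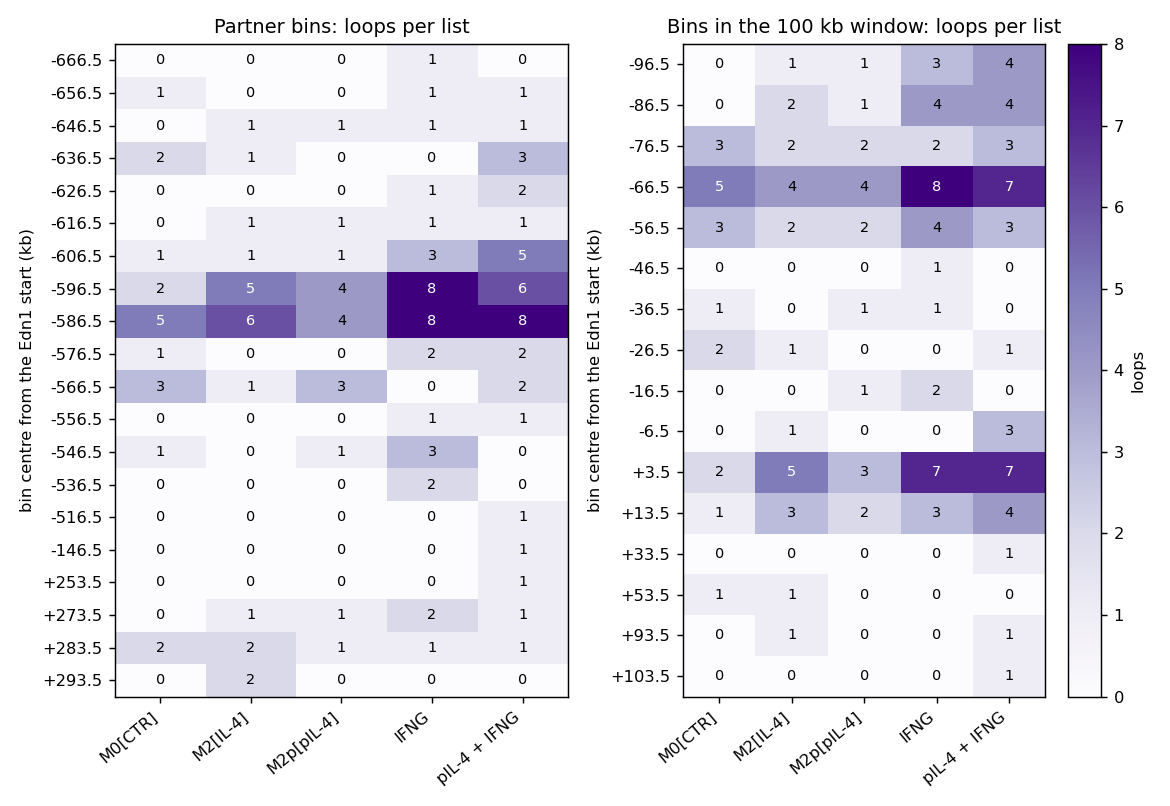
Number of loops (colour and printed figure) of each 10 kb bin in each list, for partner bins outside the window (left) and bins inside it (right), with the bin centre's distance from the Edn1 start in kb on the y axis; a loop with both anchors in the window counts in both of its bins. The rows at 586.5 and 596.5 kb upstream on the left, and at 66.5 kb upstream and at the start bin on the right, reach 8, 8, 8 and 7 loops in IFNG.

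Few bin pairs of the locus were called in every list. Of the 74 bin pairs, 4 (5.41%) were called in all 5 lists, against 9.18% of all bin pairs of the series, and 45 (60.8%) were called in 1 list, against 55.5%. When a loop with both anchors within 25 kb counted as a call, 49 of the 74 (66.2%) were present in all 5 lists and 4 (5.41%) in 1, against 64.5% and 8.78% of all bin pairs. Besides the downstream loop of the start bin, the 3 bin pairs in all 5 lists joined the busiest bins of the band to those of the upstream run. The pair of chr13:41700001-41710000 with chr13:42230001-42240000 held 17 contacts of M0[CTR], 19 of M2[IL-4], 18 of M2p[pIL-4], 21 of IFNG and 30 of pIL-4 + IFNG. This was the bin pair at least 1.5-fold higher in pIL-4 + IFNG than in M2p[pIL-4], at 1.69 (0.911 to 3.22). The pair of chr13:41710001-41720000 with the same window bin held 14, 17, 21, 23 and 21 contacts. It was the one at least 1.5-fold higher in IFNG than in M0[CTR], at 1.59 (0.786 to 3.35). The pair of chr13:41710001-41720000 with chr13:42240001-42250000 held 16, 18, 16, 14 and 19.

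Other bin pairs followed the treatments in part. A set of 4 bin pairs (5.41%) was called in every list but M0[CTR], against 1.82% of all bin pairs, and all 4 had an M0[CTR] loop within 25 kb. One of them, chr13:41710001-41720000 with chr13:42220001-42230000, held 17 contacts of M2[IL-4], 20 of M2p[pIL-4], 20 of IFNG and 15 of pIL-4 + IFNG. These 4 bin pairs were thus called during IL-4, after its washout, and with IFNG in cells never given IL-4. A further 5 bin pairs (6.76%) were called in both lists with IFNG and in no other, against 2.11% of all. In M2[IL-4] and pIL-4 + IFNG and in no other, 3 (4.05%) were called, against 1.90% of all. Bin pairs of 1 list numbered 15 in pIL-4 + IFNG, 14 in IFNG, 7 in M0[CTR], 6 in M2[IL-4] and 3 in M2p[pIL-4]. These were 20.3%, 18.9%, 9.46%, 8.11% and 4.05% of the 74, against 13.3%, 9.40%, 8.70%, 10.6% and 13.5% of all bin pairs. The loop number of each list at Edn1 enters these shares too.

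Of the genes at the ends of these loops, Adtrp also had more loops with IFNG, but part of these were loops of Edn1 counted again. Within 100 kb of its own start, Tmem170b had 78 loops of M0[CTR], 81 of M2[IL-4], 84 of M2p[pIL-4], 75 of IFNG and 95 of pIL-4 + IFNG. Gm5082 had 90, 98, 100, 98 and 120 loops. Hivep1 had 15, 21, 16, 16 and 22. Adtrp, with 7, 5, 9, 13 and 12 loops, had its 2 highest numbers in the lists with IFNG, as Edn1 did. Its window overlaps the near end of the band, so Edn1 loops there count for both genes. Bin chr13:41740001-41750000 had 0, 0, 0, 1 and 1 of them, and chr13:41750001-41760000 had 1, 0, 1, 3 and 0. Bin chr13:41760001-41770000 had 0, 0, 0, 2 and 0, and chr13:41780001-41790000 had 0, 0, 0, 0 and 1. Loops shared with Edn1 were not taken out of any number given here. Scaled by list length, Adtrp stood at 1.70 in IFNG over M0[CTR] and at 1.31 in pIL-4 + IFNG over M2p[pIL-4], while Tmem170b, Gm5082 and Hivep1 stood between 0.934 and 1.37 in these comparisons.

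The other genes of the endothelin pathway were counted in the same way. Among the precursor genes, Edn2 had 30, 28, 34, 21 and 28 loops in M0[CTR], M2[IL-4], M2p[pIL-4], IFNG and pIL-4 + IFNG, and Edn3 had 8, 14, 11, 6 and 11. Both had their lowest number in IFNG, where Edn1 had nearly its highest. Of the converting enzymes, Ece1 had 35, 36, 35, 44 and 46 loops, and Ece2 had 11, 16, 22, 15 and 14. The receptor genes had few, with 0, 1, 0, 0 and 0 at Ednra and 1, 3, 7, 1 and 4 at Ednrb, and Mme had none in any list. Of the 5 of these 7 genes with a loop in IFNG or M0[CTR], 0 were at least 1.5-fold higher and 0 lower, where 16.6% and 14.3% of all genes were. Between pIL-4 + IFNG and M2p[pIL-4], 0 of 5 were higher and 2 were lower, Ece2 and Ednrb, where 15.3% and 12.1% of all genes were.

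The loops of 6 other genes of macrophage activation whose promoters the study captured were counted too, though the study captured more promoters than these. Slc7a2, a transporter of cationic amino acids, had 4, 12, 4, 4 and 5 loops in the order above, and Klf4, a transcription factor gene, had 66, 116, 105, 92 and 107. Ccl2, which encodes a chemokine, had 28, 28, 32, 38 and 47, and Ciita, the master regulator of class II antigen presentation, had 55, 73, 62, 77 and 79. The receptor genes Cd14 and Tlr2 had 24, 31, 30, 22 and 32 and 10, 4, 9, 15 and 7. With IFNG, 0 of these 6 were at least 1.5-fold higher or lower in either setting. With 16.6% and 15.3% of all genes higher, 0 of 6 is near the background.

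Among 9747 genes over 1 Mb from Edn1 with a mean of at least 10 loops, the 5 whose scaled loop numbers most resembled those of Edn1 over the 5 lists were named, by root mean square difference of centred log2 values. Zap70 came first at 0.098, with 33, 38, 34, 57 and 63 loops. Uimc1 and Zfp346, adjacent genes that share their loops, followed at 0.103, with 18, 21, 18, 31 and 33. Serpina1c stood at 0.106 with 9, 12, 10, 22 and 20 loops, and Ptpn11 at 0.108 with 10, 14, 12, 23 and 23. These likenesses rest on 5 values each and are descriptions.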

How the data were processed

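The deposited tables were 5 loop lists, 1 per group, apparently over the 2 replicates of each, since 10 samples had 1 list per group. Each line gave 2 bins of 10 kb and, as the authors deposited it, a contact count. The methods describe MboI Hi-C without immunoprecipitation, HiC-Pro alignment and loops called with HICCUPS at 25 kb and a set false discovery rate. The processing notes name FastQC, Bowtie2, HiC-Pro, Juicer, HOMER and mm10. Whether that caller and threshold gave these 10 kb counts is not given in the sources used here. The study states read pairs per sample, but the lists hold called bin pairs alone and carry no library totals, so the depth behind each list was not used here. Columns left unmapped numbered 0.

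Loops per gene were counted within 100 kb of the start of 21755 protein-coding genes (GENCODE M21, GRCm38), scaled by list length with 1 added. Contacts were scaled by the summed contacts of bin pairs shared by both lists. Intervals were exact Poisson or exact binomial at 95%. Scripts used Python 3.11.15, pandas 2.3.3 and scipy 1.17.1, were tested on simulated data, and read sequences from GRCm38.p6. Promoter windows came from RefSeq (GRCm38.p6), where Edn1 matched by symbol. Named genes were Edn1, genes at anchor bins, the endothelin pathway, 6 of the captured promoters (F10 and Il6, also captured, were not in the set) and the 5 most alike genes. The members and lists were chosen with earlier results of these data known. Alternatives changed the window, contact minimum, scaling, merging and matching distance.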

Additional observations from a re-analysis of the deposited data

Results flagged for a closer look

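At bin pairs shared near Edn1, contacts in M2p[pIL-4] stood at 0.944 times those of M0[CTR], whereas contacts in pIL-4 + IFNG stood at 1.09 times those of IFNG. These 2 contact ratios lay on opposite sides of 1, and they came from sets of 7 and 16 bin pairs. The loop numbers of the same comparisons lay on the same side of 1, at 0.747 and 0.889. Each value came from 1 list per group, every interval held 1, and the difference between the contact ratios was not tested.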

How the results depend on the processing

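No paired analysis was possible because the loops of both replicates of a group came as a single list, and leaving out a replicate could not be done for the same reason. Across 23 values and 120 alternatives, 83 stayed close to the value reported, 37 moved, and none of the ratios past 1.5-fold turned direction. Of 78 alternatives for ratios, 6 lay on the other side of 1, all for ratios within 1.5-fold. For pIL-4 + IFNG over IFNG loop numbers these were 1.18 (merged), 1.06 (at least 20 contacts) and 1.08 (no scaling), and for M2p[pIL-4] over M0[CTR] 1.06 (called in at least 2 lists). For contacts within 50 kb they were 0.929 (M2[IL-4] over M0[CTR]) and 0.992 (IFNG over M0[CTR]). In the order M0[CTR], M2[IL-4], M2p[pIL-4], IFNG and pIL-4 + IFNG, loops numbered 7, 11, 7, 14 and 16 within 50 kb, 9, 11, 9, 10 and 14 with touching bin pairs merged, and 4, 8, 3, 9 and 12 with at least 20 contacts. Over bin pairs called in at least 2 lists, a choice made after seeing the data, they numbered 11 in M0[CTR], 21 in IFNG and 23 in pIL-4 + IFNG. Merging, which joins neighbours, put IFNG over M0[CTR] at 1.07 and pIL-4 + IFNG over M2p[pIL-4] at 1.51. With at least 20 contacts, M2[IL-4] over M0[CTR] was 1.63, M2p[pIL-4] over M0[CTR] 0.621 and M2p[pIL-4] over M2[IL-4] 0.381. The last passed 1.5-fold lower also within 50 kb (0.573), within 200 kb (0.645), with adjacent bins left out (0.665) and scaled by chromosome 13 loops (0.648). The contact ratio of M2p[pIL-4] over M0[CTR] was 0.690 within 50 kb. Why these ratios moved, the cause was not tested. Requiring the same bins, matched shares were 27.3% (M2[IL-4] in M0[CTR]), 41.2% (M2p[pIL-4] in M0[CTR]), 52.9% (M2p[pIL-4] in M2[IL-4]), 17.1% (IFNG in M0[CTR]), 26.3% (pIL-4 + IFNG in M2p[pIL-4]) and 42.1% (pIL-4 + IFNG in IFNG). Within 50 kb, they were 95.5% (M2[IL-4] in M0[CTR]), 100% (M2p[pIL-4] in M0[CTR]), 100% (IFNG in M0[CTR]) and 94.7% (pIL-4 + IFNG in M2p[pIL-4]). At single bin pairs, 0 of 54 ratios had an interval that left out 1, the largest ratio being 1.69 (0.911 to 3.22), so differences of that size were not resolved by these contact numbers.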
